A study of Mus musculus with 24 samples.

Results

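Skeletal muscle fibres turn an action potential into contraction at the triad, a junction where a T tubule of the surface membrane meets the sarcoplasmic reticulum. There a voltage-gated calcium channel serves as the voltage sensor and opens the calcium release channel of the reticulum through direct contact. The 10 genes described here encode that machinery, and they were taken by name from the 48544 genes that the deposited tables list. Cacna1s encodes the pore-forming voltage sensor, Cacnb1, Cacng1 and Cacna2d1 encode its auxiliary subunits, and Stac3 encodes an adaptor the sensor needs to reach the membrane and to couple. Ryr1 and Ryr3 encode ryanodine receptors, the release channels. Jph1 and Jph2 encode junctophilins, which tether the membranes to each other, and Trdn encodes triadin, which links the release channel to calsequestrin inside the reticulum. All 10 were found, and all 10 passed the filter on low values.

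Messenger RNA was measured in 24 libraries of C2C12, a clonal mouse myoblast line, labelled wild type, that stops dividing and fuses into myotubes when serum is lowered. The libraries form 6 groups of 4. Day 0 myoblasts were harvested near confluence in 10% serum, and day 7 myotubes had spent 7 days in 2% serum. From day 7, further myotubes in 2% serum received either 100 µM dexamethasone, a synthetic glucocorticoid used to model muscle atrophy, or a vehicle medium with 1% ethanol, for 24 h (day 8) or 72 h (day 10). Ethanol is given in the labels for vehicle medium only. Since nothing there says that the 4 replicates came from separate cultures, a p-value here reflects variation among samples that may be technical. C2C12 myotubes in a dish have no nerve or load and are bulk cultures, in which fewer cells of a type and less RNA per cell cannot be told apart.

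Levels are given as TPM, a length-scaled share of all transcripts computed by the authors, and folds are ratios of mean TPM. Tests used limma on the authors' deposited log2 table, whose log2 differences understate folds because the table is compressed. Each log2 difference therefore stands beside its TPM fold. Genes with a Benjamini-Hochberg adjusted p below 0.05 over the 16257 genes tested were counted as changed. The number of genes at 1 TPM or more ran from 12428 to 13030 per library. The replicate 1 libraries at 72 h were of doubt from earlier results of these data. Each replicate number was left out in turn, and genes below 0.3 TPM in the other 3 vehicle 72 h libraries and above 3 TPM in the other 3 dexamethasone 72 h libraries were looked up in the vehicle library left out. That library reached 0.3 TPM for 15 of 18 such genes in replicate 1, 5 of 9 in replicate 2, 1 of 2 in replicate 3 and 2 of 4 in replicate 4. For genes chosen the reverse way, the dexamethasone 72 h library left out reached 0.3 TPM for 5 of 9 genes in replicate 1, 0 of 3 in replicate 2, 1 of 4 in replicate 3 and 1 of 3 in replicate 4. These are small counts without a test, in which replicate 1 has the most genes. Results at 72 h are given with and without both replicate 1 libraries.

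Sequence just before the gene start is shown for the 4 genes whose entry held enough bases before any annotated start. They were not chosen by their levels. Of these, Cacna1s, Ryr1 and Jph2 rose in day 7 myotubes and Cacna2d1 did not pass, as given below. The E-box, CANNTG, is the motif bound by basic helix-loop-helix factors such as the myogenic regulators MyoD and myogenin, and CAGCTG is a form of it that they are known to bind in muscle genes. The stretches are from RefSeq on GRCm38.p6, end at or before the first annotated start, and are written 5′ to 3′ on the gene's own strand with CAGCTG in capitals. They lie at chr1:136052561-136052749 on the plus strand for Cacna1s, chr7:29125180-29125401 on the minus strand for Ryr1, chr2:163397994-163398243 on the minus strand for Jph2 and chr5:15934441-15934690 on the plus strand for Cacna2d1.
Cacna1s: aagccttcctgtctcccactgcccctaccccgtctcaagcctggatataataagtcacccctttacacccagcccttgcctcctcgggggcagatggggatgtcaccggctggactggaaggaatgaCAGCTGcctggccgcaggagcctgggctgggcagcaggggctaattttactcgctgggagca
Ryr1: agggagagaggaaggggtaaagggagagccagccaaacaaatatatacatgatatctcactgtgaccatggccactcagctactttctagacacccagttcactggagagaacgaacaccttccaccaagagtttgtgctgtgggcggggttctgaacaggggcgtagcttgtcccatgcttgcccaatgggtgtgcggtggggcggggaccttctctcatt
Jph2: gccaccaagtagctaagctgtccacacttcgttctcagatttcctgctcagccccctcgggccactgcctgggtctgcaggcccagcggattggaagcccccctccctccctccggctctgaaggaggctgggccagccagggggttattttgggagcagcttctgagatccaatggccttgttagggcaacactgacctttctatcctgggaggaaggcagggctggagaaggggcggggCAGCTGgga
Cacna2d1: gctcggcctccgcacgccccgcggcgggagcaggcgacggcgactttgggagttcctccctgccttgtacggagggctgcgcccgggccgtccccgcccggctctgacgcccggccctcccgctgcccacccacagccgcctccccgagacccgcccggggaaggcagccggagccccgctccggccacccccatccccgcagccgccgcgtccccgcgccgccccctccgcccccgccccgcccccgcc
Both motifs read the same on either strand, and each CAGCTG also counts as a CANNTG. The 189 bases of Cacna1s held 1 CAGCTG, whose first base lies 123 bases before the RefSeq start, among 2 CANNTG. The 250 bases of Jph2 held 1 CAGCTG, 9 bases before the start, and no other CANNTG. Neither motif was in the 222 bases of Ryr1 or the 250 bases of Cacna2d1. Of the 32851 mouse promoters in the same table, 9.77% held CAGCTG in a window of 189 bases, 11.5% in 222 bases and 13.0% in 250 bases. CANNTG was in 57.1%, 62.4% and 66.2% of these windows. These are matches of letters, and binding was not measured.

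In day 7 myotubes, 9 of the 10 genes were higher than in day 0 myoblasts and none was lower, against 30.5% of all genes tested that were higher and 29.8% that were lower. Median log2 difference over the 10 genes was 1.42, against 0.01 over all genes tested. Folds ran from 0.983 for Cacna2d1 to 29.0 for Trdn, and for 8 genes every day 7 library lay above every day 0 library, which held for 24.7% of all genes tested. The comparison asks how the triad genes change as myoblasts become myotubes, and the serum concentration differed between these groups in the same way, so that serum and differentiation cannot be told apart. All 10 myotube markers tested rose as well, with summed levels of 15990 to 16980 TPM in day 7 myotubes and 565 to 866 TPM in day 0 myoblasts. All 10 markers of proliferating cells fell, and their sum was 88.8 to 271 TPM in day 7 myotubes and 1189 to 1310 TPM in day 0 myoblasts. Of 8 fibroblast markers tested 5 rose, with a sum over 11 markers of 2383 to 3321 TPM in day 7 myotubes and 1018 to 1479 TPM in day 0 myoblasts. Of 6 cardiac markers tested 4 rose, with a sum over 8 markers of 1405 to 1630 TPM in day 7 myotubes and 79.2 to 131 TPM in day 0 myoblasts. Little of that sum came from Myh6, which averaged 3.88 TPM in day 7 myotubes and 0.139 TPM in day 0 myoblasts. Nppa averaged 0.0941 TPM in day 7 myotubes, and Nppb 2.47 TPM in day 7 myotubes and 4.68 TPM in day 0 myoblasts. Of 8 markers of undifferentiated myoblasts 2 rose and 5 fell, of 5 adipocyte markers tested 1 rose and 1 fell, and of 6 smooth muscle markers 1 fell. The part of these markers' cells in the results was not tested.

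**Figure D1:**
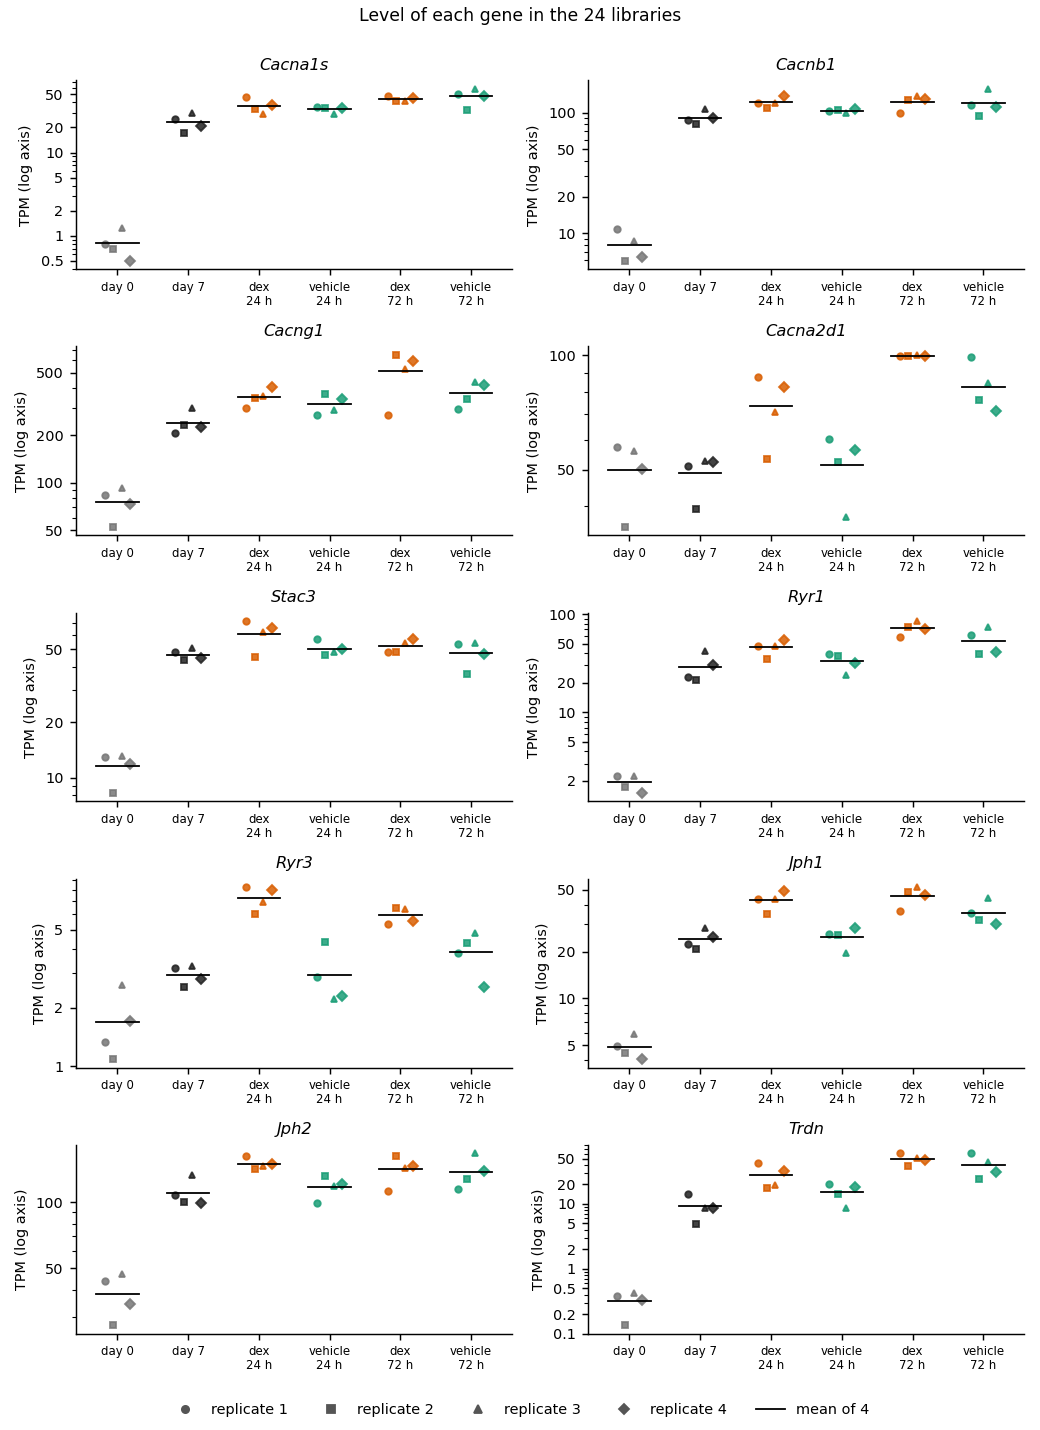
TPM of each of the 10 genes in the 24 libraries, on a log axis whose range differs between panels. Symbols mark replicates 1 to 4 and bars mark the mean of 4 libraries. Day 0 myoblasts lie below all other groups for 8 genes, whereas Cacna2d1 averaged 48.9 TPM in day 7 myotubes and 49.8 TPM in day 0 myoblasts.

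The voltage sensor was near or below 1 TPM in myoblasts. Cacna1s stood at 25.3, 17.0, 30.2 and 20.7 TPM in day 7 myotubes, against 0.795, 0.698, 1.26 and 0.503 TPM in day 0 myoblasts. The lowest myotube library was far above the highest myoblast library. This was a 28.7-fold rise (log2 difference 2.60 ± 0.13 SE, limma adjusted p = 1.42e-13).

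Among the auxiliary subunits, Cacnb1 and Cacng1 rose and Cacna2d1 did not pass. Cacnb1, the intracellular beta subunit that carries the sensor to the membrane, stood at 87.2, 80.2, 108 and 90.1 TPM in day 7 myotubes, against 10.8, 5.91, 8.59 and 6.3 TPM in day 0 myoblasts. The groups were well apart, and the rise was 11.5-fold (log2 difference 2.16 ± 0.09 SE, adjusted p = 6.64e-15). Cacng1, the skeletal muscle gamma subunit, was already abundant in myoblasts. It stood at 208, 233, 297 and 227 TPM in day 7 myotubes, against 83.9, 52.5, 93.0 and 72.8 TPM in day 0 myoblasts, a 3.19-fold rise without overlap (log2 difference 1.12 ± 0.13 SE, adjusted p = 1.26e-07). Cacna2d1, the extracellular alpha2-delta subunit that many other tissues also express, stood at 51.3, 39.5, 52.6 and 52.3 TPM in day 7 myotubes, against 57.4, 35.4, 55.9 and 50.3 TPM in day 0 myoblasts. The groups overlapped, and the difference did not pass (log2 difference 0.05 ± 0.11 SE, adjusted p = 0.704). In myoblasts Cacna2d1 was present at 49.8 ± 10.1 TPM while the pore subunit Cacna1s was at 0.813 ± 0.319 TPM (SD, n = 4 each).

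The adaptor Stac3 stood at 48.3, 43.6, 50.8 and 44.9 TPM in day 7 myotubes, against 12.9, 8.26, 13.1 and 11.9 TPM in day 0 myoblasts. The groups did not overlap, and the rise was 4.06-fold (log2 difference 1.36 ± 0.10 SE, adjusted p = 1.1e-10).

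Both release channels rose. Ryr1, the channel that skeletal muscle needs for voltage-gated release, stood at 22.6, 21.1, 42.4 and 30.2 TPM in day 7 myotubes, against 2.24, 1.75, 2.25 and 1.51 TPM in day 0 myoblasts. The groups were far apart, with a 15.0-fold rise (log2 difference 2.23 ± 0.14 SE, adjusted p = 1.49e-11). Ryr3, which is opened by calcium rather than by the voltage sensor, stood at 3.19, 2.54, 3.27 and 2.8 TPM in day 7 myotubes, against 1.34, 1.09, 2.6 and 1.7 TPM in day 0 myoblasts. Day 0 replicate 3 lay within the range of the myotubes, and the rise was 1.75-fold (log2 difference 0.62 ± 0.14 SE, adjusted p = 0.000462). The cardiac paralogue Ryr2 averaged at most 0.00773 TPM in any group.

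The share of Ryr3 in the ryanodine receptor message was measured from the same TPM. It was 12.3%, 10.8%, 7.15% and 8.47% of the summed Ryr1 and Ryr3 TPM in day 7 myotubes, against 37.4%, 38.4%, 53.6% and 52.9% in day 0 myoblasts. The groups did not overlap, and the mean share differed by -35.9 percentage points, day 7 minus day 0. The exact two-sided permutation test gave p = 0.0286, the smallest that 4 against 4 libraries allow, and 0.0762 after Benjamini-Hochberg adjustment over the 8 share tests. Taken from 2 to the power of the deposited log2 values, which are compressed, the difference was -12.7 points.

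Both junctophilins rose. Jph1, which is most abundant in skeletal muscle, stood at 22.3, 20.8, 28.6 and 25.0 TPM in day 7 myotubes, against 4.95, 4.45, 5.91 and 4.07 TPM in day 0 myoblasts. This was a 4.99-fold rise without overlap (log2 difference 1.49 ± 0.09 SE, adjusted p = 4.31e-12). Jph2, the junctophilin shared with heart, stood at 108, 100.2, 133 and 99.6 TPM in day 7 myotubes, against 43.6, 27.5, 47.1 and 34.5 TPM in day 0 myoblasts, a 2.89-fold rise without overlap (log2 difference 1.06 ± 0.08 SE, adjusted p = 2.82e-10). Jph2 was the more abundant of them in every library. Its share of the summed junctophilin TPM was 82.0 ± 1.39% in day 7 myotubes and 88.5 ± 1.68% in day 0 myoblasts (SD, n = 4 each), without overlap (exact permutation p = 0.0286, adjusted p = 0.0762).

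Trdn and Cacna1s had the largest folds of mean TPM, while the fitted log2 difference of Cacna1s was the larger. Trdn stood at 14.4, 4.98, 8.56 and 8.79 TPM in day 7 myotubes, against 0.378, 0.136, 0.428 and 0.325 TPM in day 0 myoblasts. The groups were far apart although the myotube libraries differed among themselves, and the rise was 29.0-fold (log2 difference 2.27 ± 0.23 SE, adjusted p = 2.4e-08).

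**Figure D2:**
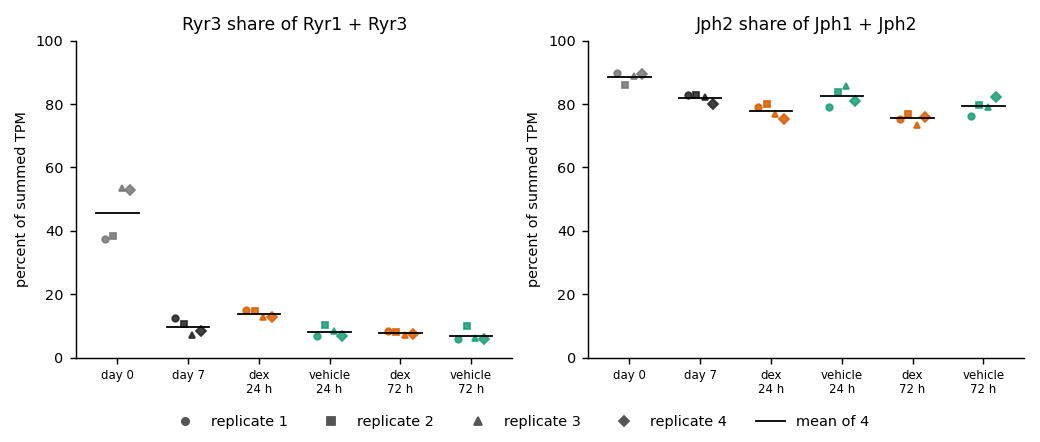
Share of Ryr3 in the summed Ryr1 and Ryr3 TPM (left) and of Jph2 in the summed Jph1 and Jph2 TPM (right), in percent, for each of the 24 libraries, with symbols for replicates 1 to 4 and bars for group means. The mean Ryr3 share was 45.6% in day 0 myoblasts and 13.8% or less in every later group, and the mean Jph2 share lay between 75.5% and 88.5% throughout.

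After 24 h of dexamethasone, Ryr3 and Jph1 were higher than in vehicle and no other gene of the 10 passed the test, against 13.2% of all genes tested that were higher and 12.2% that were lower. Median log2 difference of the 10 genes was 0.22, against -0.01 over all genes tested. The question here is whether the glucocorticoid that models atrophy alters the coupling machinery within a day. Since the labels give ethanol for vehicle medium only, a difference in ethanol cannot be told apart from dexamethasone, here or at 72 h. Marker lists for other cell types moved as well. Of 5 adipocyte markers tested, 4 were higher, with a sum over 8 markers of 174 to 253 TPM with dexamethasone and 37.2 to 50.04 TPM with vehicle, while the defining adipocyte genes Adipoq, Plin1 and Lep averaged below 0.1 TPM in both groups. Of 8 fibroblast markers tested, 1 was higher and 4 were lower, and the sum over 11 markers was 1439 to 1677 TPM with dexamethasone and 2290 to 3637 TPM with vehicle. Of 8 markers of undifferentiated myoblasts 3 were higher and 1 was lower, of 6 smooth muscle markers 2 were higher, and of 6 cardiac markers tested 1 was lower. None of the 10 myotube markers or the 10 markers of proliferating cells tested passed. The part of other cell types in the results was not tested.

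Ryr3 had the largest fold of the 10 genes at 24 h. It stood at 8.25, 6.02, 6.94 and 7.98 TPM with dexamethasone for 24 h, against 2.88, 4.35, 2.2 and 2.3 TPM with vehicle. All treated libraries lay above all vehicle libraries, and the rise was 2.49-fold (log2 difference 0.88 ± 0.14 SE, limma adjusted p = 6.7e-05). Between libraries of the same number the log2 ratio of TPM ran from 0.47 to 1.79.

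Ryr1 did not pass in the same comparison. It stood at 46.9, 35.1, 46.9 and 55.1 TPM with dexamethasone, against 39.4, 37.8, 24.2 and 31.8 TPM with vehicle. The groups overlapped, at 1.38-fold (log2 difference 0.26 ± 0.14 SE, adjusted p = 0.186). Ryr3 made up 15.0%, 14.7%, 12.9% and 12.7% of the summed TPM of Ryr1 and Ryr3 with dexamethasone, against 6.81%, 10.3%, 8.34% and 6.75% with vehicle. The shares did not overlap, and the mean was 5.74 points higher with dexamethasone (exact permutation p = 0.0286, adjusted p = 0.0762), or 3.25 points from the log2 table. It was higher with dexamethasone in 4 of 4 same-numbered pairs (exact permutation within pairs, p = 0.125, the smallest that 4 pairs allow).

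Jph1 stood at 43.6, 35.0, 44.0 and 49.2 TPM with dexamethasone for 24 h, against 26.0, 25.4, 19.6 and 28.5 TPM with vehicle. The lowest treated library lay above the highest vehicle library, and the rise was 1.73-fold (log2 difference 0.48 ± 0.09 SE, adjusted p = 0.000376). Jph2 stood at 164, 142, 147 and 149 TPM with dexamethasone, against 98.9, 132, 119 and 122 TPM with vehicle. These groups did not overlap either, but the 1.28-fold difference did not pass (log2 difference 0.18 ± 0.08 SE, adjusted p = 0.11). The share of Jph2 was 77.8 ± 2.19% with dexamethasone and 82.5 ± 2.93% with vehicle (SD, n = 4 each), overlapping in part (exact permutation p = 0.0571, adjusted p = 0.0762). It was lower with dexamethasone in 4 of 4 same-numbered pairs, by -8.84 to -0.232 points, and an exact permutation test within 4 pairs gave p = 0.125.

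Trdn and Cacna2d1 came nearest to the threshold among the others. Trdn stood at 42.9, 17.9, 19.7 and 32.5 TPM with dexamethasone for 24 h, against 20.4, 14.0, 8.63 and 18.6 TPM with vehicle. The treated libraries were higher within each numbered pair, but the groups overlapped, at 1.83-fold (log2 difference 0.53 ± 0.23 SE, adjusted p = 0.0944). Cacna2d1 stood at 87.5, 53.2, 70.8 and 82.4 TPM with dexamethasone, against 60.2, 52.3, 37.5 and 56.2 TPM with vehicle, at 1.42-fold (log2 difference 0.28 ± 0.11 SE, adjusted p = 0.0569). Replicate 2 showed almost no difference between treatments. Libraries of the same number deviated together in this comparison. When the fit held the number as a block 4 of the 10 genes passed, with Trdn at adjusted p = 0.00808 and Cacna2d1 at adjusted p = 0.011 added. That block was shared by all 24 libraries, including groups whose numbers were not taken to pair. Apart from fits that left out 1 library, all genes called higher ran from 1721 to 2359 at 24 h. Cacna2d1 passed as well on the scale of log2(TPM + 0.1) (adjusted p = 0.0365), without dexamethasone replicate 2 (adjusted p = 0.0115), without vehicle replicate 1 (adjusted p = 0.0232), and without vehicle 72 h replicate 1 or day 0 replicate 2 (adjusted p = 0.0449 and 0.0475).

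The sensor and its partners Cacnb1, Cacng1 and Stac3 had folds of 1.11 to 1.21 at 24 h. The median log2 difference of all genes tested on the TPM scale was 0.08 in this comparison. Cacna1s stood at 47.0, 33.5, 28.8 and 37.4 TPM with dexamethasone, against 35.2, 33.9, 28.6 and 33.8 TPM with vehicle (adjusted p = 0.903). Cacnb1 stood at 119.9, 109.9, 122 and 137 TPM with dexamethasone, against 103, 106, 99.6 and 108 TPM with vehicle, which did not overlap (1.17-fold, adjusted p = 0.474). Cacng1 stood at 301, 347, 358 and 407 TPM with dexamethasone, against 269, 366, 292 and 342 TPM with vehicle (adjusted p = 0.86). The ranges of Cacna1s and Cacng1 overlapped broadly between treatments. Stac3 stood at 71.3, 45.7, 62.0 and 65.2 TPM with dexamethasone, against 57.2, 46.4, 48.4 and 50.02 TPM with vehicle (adjusted p = 0.434), with replicate 2 the lowest library in both groups.

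After 72 h of dexamethasone, Ryr3 and Jph1 again were the genes higher than in vehicle, and none was lower, against 15.2% of all genes tested that were higher and 15.2% that were lower. Median log2 difference of the 10 genes was 0.24, against 0.01 over all genes tested. Without both replicate 1 libraries 4 genes passed, with Cacng1 and Ryr1 added. Blocking on the replicate number across all 24 libraries also gave 4 genes, with Cacng1 and Cacna2d1 added. Apart from fits that left out 1 library, all genes called higher ran from 1752 to 2709 at 72 h. All 10 markers of proliferating cells were higher, with a sum of 117 to 434 TPM with dexamethasone and 11.9 to 55.2 TPM with vehicle. Of 8 fibroblast markers tested, 7 were lower, with a sum over 11 markers of 322 to 1260 TPM with dexamethasone and 2541 to 3864 TPM with vehicle. Of 5 adipocyte markers tested, 3 were higher, with a sum over 8 markers of 148 to 208 TPM with dexamethasone and 43.6 to 82.2 TPM with vehicle. Of 10 myotube markers tested, 2 were higher and 1 was lower, of 8 markers of undifferentiated myoblasts 3 were higher and 2 were lower, of 6 smooth muscle markers 1 was lower, and of 6 cardiac markers tested 1 was higher and 1 was lower. The part of these cells in the results was not tested.

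Ryr3 stood at 5.33, 6.46, 6.41 and 5.52 TPM with dexamethasone for 72 h, against 3.78, 4.27, 4.81 and 2.54 TPM with vehicle. The groups did not overlap, and the rise was 1.54-fold (log2 difference 0.47 ± 0.14 SE, limma adjusted p = 0.0113). Without both replicate 1 libraries it was 1.58-fold (adjusted p = 0.0224). The call rested in part on vehicle 72 h replicate 4, the lowest library, without which the adjusted p was 0.0586. The share of Ryr3 in the summed TPM with Ryr1 was 7.67 ± 0.602% with dexamethasone and 6.92 ± 1.98% with vehicle (SD, n = 4 each), and the ranges overlapped (exact permutation p = 0.571, adjusted p = 0.571). The difference of 0.751 points was 1.74 points without vehicle replicate 2 and 0.19 points without both replicate 1 libraries.

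Jph1 stood at 36.6, 48.8, 52.0 and 46.1 TPM with dexamethasone for 72 h, against 35.6, 32.2, 44.4 and 30.4 TPM with vehicle. The groups overlapped through vehicle replicate 3 and treated replicate 1, and the rise was 1.29-fold (log2 difference 0.28 ± 0.09 SE, adjusted p = 0.0203). Without both replicate 1 libraries the groups no longer overlapped, at 1.37-fold (adjusted p = 0.00948). The call was lost on the scale of log2(TPM + 0.1) (adjusted p = 0.0789), with the 8 libraries of the comparison fitted alone (adjusted p = 0.0643), and without any of replicates 2, 3 and 4 with dexamethasone or replicates 2 and 4 with vehicle (adjusted p = 0.052 to 0.0783). Jph2 stood at 112, 164, 144 and 146 TPM with dexamethasone, against 115, 128, 168 and 139 TPM with vehicle (adjusted p = 0.722). The ranges overlapped almost wholly. Its share of junctophilin message was 75.5 ± 1.51% with dexamethasone and 79.3 ± 2.41% with vehicle (SD, n = 4 each; exact permutation p = 0.0571, adjusted p = 0.0762). It was lower with dexamethasone in 4 of 4 same-numbered pairs, by -6.05 to -0.873 points (exact permutation within pairs, p = 0.125).

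The replicate 1 libraries weighed most on Cacng1. It stood at 268, 648, 532 and 593 TPM with dexamethasone for 72 h, against 295, 340.2, 436 and 417 TPM with vehicle. Treated replicate 1 was the lowest of these 8 libraries, and the other treated libraries lay above all vehicle libraries. The difference was 1.37-fold (log2 difference 0.30 ± 0.13 SE, adjusted p = 0.0812) with all libraries and 1.49-fold (log2 difference 0.43, adjusted p = 0.00161) without both replicate 1 libraries, and it passed without the treated one alone (adjusted p = 0.000341). With all libraries and numbers blocked, the adjusted p was 0.0401.

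Ryr1 stood at 58.9, 74.0, 84.7 and 70.1 TPM with dexamethasone for 72 h, against 60.6, 38.9, 73.5 and 41.4 TPM with vehicle. The groups overlapped, at 1.34-fold (log2 difference 0.35 ± 0.14 SE, adjusted p = 0.0682), and the difference was 1.49-fold (adjusted p = 0.0327) without both replicate 1 libraries. It also passed without vehicle replicate 3, the highest vehicle library (adjusted p = 0.016), or vehicle replicate 1 (adjusted p = 0.0444). Cacna2d1 stood at 99.4, 99.7, 100.2 and 99.4 TPM with dexamethasone, against 98.9, 76.2, 84.7 and 71.2 TPM with vehicle. The treated libraries were nearly identical and lay just above the highest vehicle library, replicate 1. The 1.2-fold difference did not pass (adjusted p = 0.138), also not without both replicate 1 libraries (1.29-fold, adjusted p = 0.08), but passed with the block (adjusted p = 0.0396) and without vehicle replicate 1 alone (adjusted p = 0.0482).

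The other 4 genes had folds of 0.943 to 1.25 at 72 h. Cacna1s stood at 48.3, 42.0, 42.0 and 45.5 TPM with dexamethasone, against 50.4, 32.2, 57.9 and 48.0 TPM with vehicle (adjusted p = 0.899). Trdn stood at 60.1, 38.9, 52.0 and 48.1 TPM with dexamethasone, against 60.3, 24.6, 44.1 and 30.8 TPM with vehicle (adjusted p = 0.36). In both genes the treated libraries fell inside the wider range of the vehicle libraries. Cacnb1 stood at 99.8, 127, 137 and 131 TPM with dexamethasone, against 116, 94.8, 158 and 112 TPM with vehicle (adjusted p = 0.691). Stac3 stood at 48.2, 48.6, 54.0 and 57.0 TPM with dexamethasone, against 53.5, 36.9, 53.9 and 47.0 TPM with vehicle (adjusted p = 0.466). These ranges overlapped too, and no fall of any of the 10 genes passed the test at either time.

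**Figure D3:**
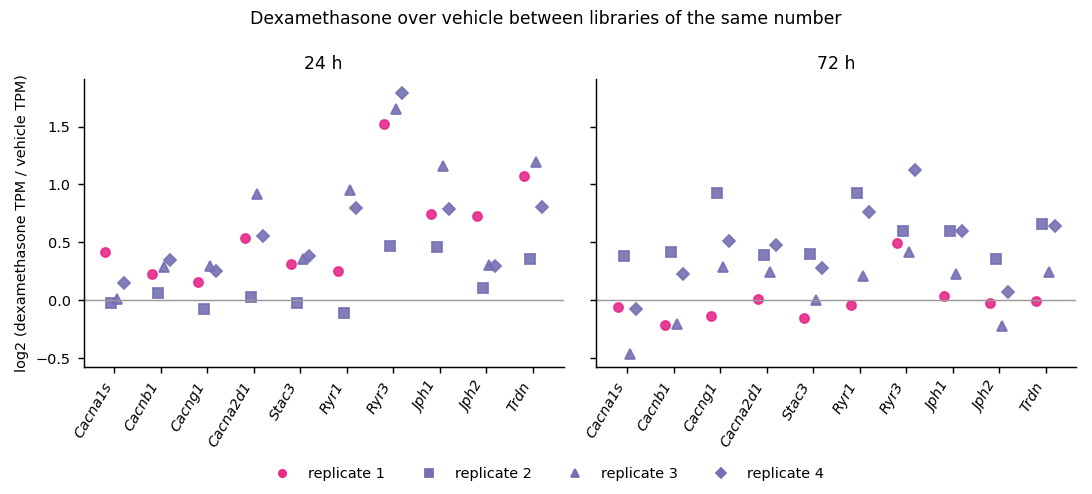
Log2 ratio of TPM, dexamethasone over vehicle, between libraries of the same replicate number at 24 h (left) and 72 h (right) for each of the 10 genes. Points above 0 are higher with dexamethasone. At 72 h, replicate 1 (pink) has 3 of 10 genes above 0, while replicate 2 has 10 of 10 above 0. The share of all genes above 0 was not computed per pair.

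The numbered pairs differed in the TPM ratio of dexamethasone over vehicle. No median over all genes was taken per pair, so a shift of a whole library cannot be told apart from the response of these genes. At 24 h the median log2 ratio over the 10 genes was 0.48 in replicate 1, 0.04 in replicate 2, 0.64 in replicate 3 and 0.47 in replicate 4. At 72 h it was -0.04 in replicate 1, 0.51 in replicate 2, 0.22 in replicate 3 and 0.49 in replicate 4. Ryr3, Jph1 and Cacna2d1 were above 0 in 4 of 4 pairs at both times. In replicate 1 at 72 h, however, the ratio was only 0.007 for Cacna2d1 and 0.04 for Jph1. How many of all genes were above 0 in every pair was not counted.

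The responses at 72 h and 24 h were compared in the same fit. None of the 10 genes passed the test, against 5.56% of all genes tested that were higher in this test and 5.77% that were lower. By limma the lowest adjusted p was that of Ryr3, whose fitted response was smaller at 72 h than at 24 h (log2 difference -0.41 ± 0.19 SE, adjusted p = 0.185). Without both replicate 1 libraries at 72 h, the response of Cacng1 was larger at 72 h (log2 difference 0.39, adjusted p = 0.0395), as it was without the dexamethasone library alone (adjusted p = 0.0177).

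**Figure D4:**
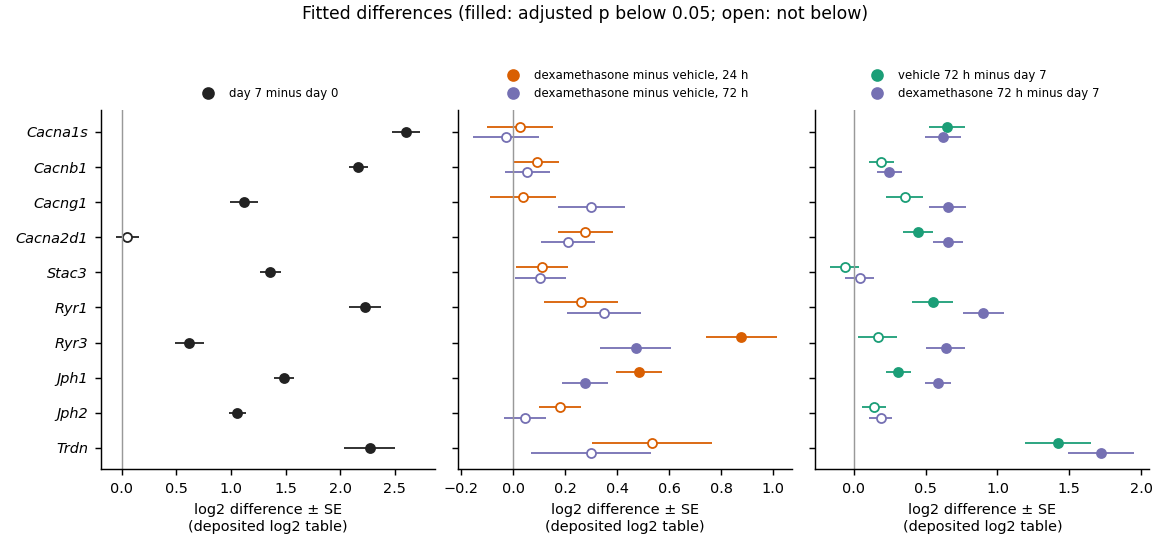
Fitted log2 differences with their standard errors from limma on the deposited log2 table, for day 7 minus day 0 (left), dexamethasone minus vehicle at 24 h and 72 h (middle) and vehicle or dexamethasone at 72 h minus day 7 (right). Filled points have an adjusted p below 0.05. Horizontal ranges differ between panels, and the largest value is 2.60 for Cacna1s on the left, 0.88 for Ryr3 at 24 h in the middle and 1.72 for Trdn with dexamethasone on the right.

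The vehicle groups follow the genes with further days in culture without dexamethasone. After 24 h of vehicle, none of the 10 genes passed the test against day 7 myotubes, against 0.0984% of all genes tested that were higher and 0.111% that were lower. By limma the lowest were those of Cacna1s (1.41-fold, adjusted p = 0.127), Trdn (1.68-fold, adjusted p = 0.251) and Cacng1 (1.31-fold, adjusted p = 0.263). Ethanol and the added day cannot be told apart in this comparison.

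After 72 h of vehicle, 5 genes were higher than in day 7 myotubes and none was lower, against 8.77% of all genes tested that were higher and 10.3% that were lower. Median log2 difference of the 10 genes was 0.33, against 0.01 over all genes tested. Here too ethanol and the added days cannot be told apart. Trdn averaged 39.9 ± 15.8 TPM with vehicle for 72 h and 9.17 ± 3.87 TPM in day 7 myotubes, a 4.35-fold rise (SD, n = 4 each; limma adjusted p = 0.000964), or 3.62-fold without the replicate 1 library. Cacna1s averaged 47.2 ± 10.8 TPM with vehicle for 72 h and 23.3 ± 5.72 TPM in day 7 myotubes, a 2.02-fold rise (adjusted p = 0.00277). Ryr1 rose 1.84-fold (adjusted p = 0.0123), Cacna2d1 1.69-fold (adjusted p = 0.00767) and Jph1 1.47-fold (adjusted p = 0.0191). Vehicle libraries overlapped those of day 7 for Ryr1 and for none of the other genes that passed. The share of all genes without overlap was not computed for this comparison. Without vehicle 72 h replicate 3, Ryr1 (adjusted p = 0.064) and Jph1 (adjusted p = 0.0932) did not pass, and Jph1 also did not without day 7 replicate 1 or replicate 2 (adjusted p = 0.0509 and 0.0606). With only the compared groups fitted, Ryr1 did not pass either (adjusted p = 0.0575). Without both replicate 1 libraries at 72 h, Cacng1 passed in addition (1.65-fold, adjusted p = 0.00603; 1.54-fold and 0.0561 with all libraries). It also passed without dexamethasone 72 h replicate 1 or 2, vehicle 72 h replicate 1 or day 7 replicate 3 (adjusted p = 0.00819 to 0.047), and Cacnb1 passed without vehicle 72 h replicate 2 (adjusted p = 0.0221). Cacng1 passed as well with quantile normalisation (adjusted p = 0.041) and with only the compared groups fitted (adjusted p = 0.0346). All 10 markers of proliferating cells were lower here, with a sum of 11.9 to 55.2 TPM with vehicle for 72 h and 88.8 to 271 TPM in day 7 myotubes. Of 10 myotube markers 4 were higher and 1 was lower, of 8 markers of undifferentiated myoblasts 1 was higher, and of 6 smooth muscle markers 1 was lower.

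Stac3, Cacnb1, Jph2 and Ryr3 did not pass between vehicle 72 h and day 7, with folds of 1.02, 1.31, 1.25 and 1.3. Stac3 averaged 47.9 ± 7.94 TPM with vehicle for 72 h and 46.9 ± 3.25 TPM in day 7 myotubes (SD, n = 4 each; adjusted p = 0.686). Between vehicle 72 h and vehicle 24 h, Cacna2d1 (1.6-fold, adjusted p = 0.0436) and Trdn (2.59-fold, adjusted p = 0.0393) rose, against 2.67% of all genes tested that were higher and 1.69% that were lower. Neither passed without both replicate 1 libraries at 72 h (adjusted p = 0.092 and 0.0751). Both calls were also lost without any 1 of vehicle 24 h replicates 1 and 3 or vehicle 72 h replicates 1, 2 and 3 (adjusted p = 0.0519 to 0.207), and that of Cacna2d1 without any 1 of 7 further libraries (adjusted p = 0.0501 to 0.0556). Of these 7, only vehicle 24 h replicate 4 belongs to the comparison. Without any 1 of the others the log2 difference stayed at 0.38.

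Dexamethasone myotubes at 72 h were set against day 7 as well, which shares the day 7 libraries with the comparison above. Dexamethasone and the added days in culture cannot be told apart in it. There, 8 of the 10 genes were higher and none was lower, against 23.8% of all genes tested that were higher and 23.9% that were lower. Of 10 myotube markers 7 were higher and 1 was lower, 6 of 8 fibroblast markers tested were lower, 4 of 5 adipocyte markers tested were higher, and 3 of 6 smooth muscle markers were lower. Of 6 cardiac markers tested 2 were higher and 2 were lower, of 8 markers of undifferentiated myoblasts 3 were higher and 2 were lower, and of 10 markers of proliferating cells 1 was higher. Trdn was 5.43-fold higher (adjusted p = 4.82e-06), Ryr1 2.47-fold (adjusted p = 3.06e-05), Cacng1 2.11-fold (adjusted p = 0.00028) and Cacna2d1 2.04-fold (adjusted p = 3.45e-05). Ryr3 was 2.01-fold higher (adjusted p = 0.00063), Cacna1s 1.91-fold (adjusted p = 0.000416), Jph1 1.9-fold (adjusted p = 1.62e-05) and Cacnb1 1.35-fold (adjusted p = 0.0245). Stac3 (1.11-fold, adjusted p = 0.762) and Jph2 (1.28-fold, adjusted p = 0.0619) did not pass, but Jph2 did without both replicate 1 libraries at 72 h (adjusted p = 0.0172) and without dexamethasone 72 h replicate 1, day 7 replicate 3 or vehicle 72 h replicate 3 (adjusted p = 0.0187 to 0.0428). Cacnb1 did not pass without day 7 replicate 1, 2 or 4 or dexamethasone replicate 3 or 4 (adjusted p = 0.0508 to 0.071). With quantile normalisation it did not pass either (adjusted p = 0.0896). Against day 0 myoblasts all 10 genes were higher with dexamethasone for 72 h, against 30.1% of all genes tested that were higher and 33% that were lower, from 2.0-fold for Cacna2d1 to 157-fold for Trdn. Dexamethasone, serum and differentiation cannot be told apart against day 0.

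Ordered by mean TPM, 8 of the 10 genes had a single step between neighbouring groups that passed the test, that of day 7 myotubes over day 0 myoblasts. The order comes from the same data, and the share of all genes with this pattern was not counted. Groups further apart could still differ. Dexamethasone 72 h over day 7 passed for Cacna1s, Cacnb1, Cacng1, Ryr1, Jph1 and Trdn of these 8, and not for Stac3 and Jph2. For Cacna2d1 no neighbouring step passed, although its mean ran up to 99.7 ± 0.377 TPM with dexamethasone for 72 h, against 48.9 ± 6.32 TPM in day 7 myotubes (SD, n = 4 each). For Ryr3 the groups fell into a lowest level of 1.68 ± 0.66 TPM in day 0 myoblasts, then vehicle 24 h, day 7 and vehicle 72 h at 2.93 to 3.85 TPM, then dexamethasone 72 h and 24 h at 5.93 and 7.3 TPM. The steps from dexamethasone 72 h to vehicle 72 h and from vehicle 24 h to day 0 myoblasts passed (adjusted p = 0.0113 and 0.000536). Cacng1 was the most abundant of the 10 genes in every group, at 510.4 ± 168 TPM with dexamethasone for 72 h and 372 ± 66 TPM with vehicle for 72 h (SD, n = 4 each).

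Across the 24 libraries, which share the step between day 0 and the rest, Pearson r of the log2 values was 0.985 between Cacna1s and Cacnb1, 0.976 between Cacna1s and Ryr1, and 0.985 between Ryr1 and Jph1. Cacna2d1 correlated less with its own channel partners, at 0.588 with Cacna1s, 0.521 with Cacnb1 and 0.501 with Stac3. Ryr3 had r of 0.732 with Cacna1s and 0.791 with Ryr1. Among all genes tested, 1 of the 2 patterns most like that of Ryr1 was that of Neb (r = 0.994), which encodes the sarcomere protein nebulin. The closest to Cacna1s was Hrc (r = 0.994), a calcium-binding protein of the reticulum, and the closest to Cacnb1 was Unc45b (r = 0.995), a myosin chaperone. The closest to Stac3 was Tnni2 (r = 0.986), a fast troponin, and the closest to Trdn was Fsd2 (r = 0.991). The closest to Jph2 was Inppl1 (r = 0.985) and the closest to Cacng1 was Neurl1a (r = 0.986), while Rbfox1 (r = 0.988), an RNA-binding splicing regulator, was among the 2 closest to Jph1. Cacna2d1 and Ryr3 had looser best matches, Tmem87a (r = 0.962) and Zfp346 (r = 0.948).

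Of 57 other genes of calcium channels, junctional partners, T tubules, store-operated entry and channel inhibitors, 47 were tested. In day 7 myotubes 30 were higher and 9 were lower than in day 0 myoblasts, against 30.5% and 29.8% of all genes tested, with a median log2 difference of 0.77. Cav3, which encodes the muscle caveolin that shapes T tubules, was at 132 ± 16.2 TPM in day 7 myotubes and 0.596 ± 0.408 TPM in day 0 myoblasts, 221-fold higher (adjusted p = 5.34e-16). Casq1, the calcium buffer of the reticulum, was 153-fold higher (adjusted p = 2.92e-13), and Trim72, a membrane repair protein, was 64.3-fold higher (adjusted p = 1.37e-16). The largest fall was that of Rem1, a small GTPase of the RGK family, which inhibits voltage-gated calcium channels, with 9.46 ± 2.8 TPM in day 7 myotubes and 32.6 ± 6.9 TPM in day 0 myoblasts (adjusted p = 1.09e-05). The scaffold Homer1 (adjusted p = 1.45e-05) and the ferlin Myof (adjusted p = 2.22e-05) fell too, to 0.478 and 0.513 of their myoblast levels.

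With dexamethasone for 24 h, 11 of the 47 genes were higher and 5 were lower, against 13.2% and 12.2% of all genes tested. At 72 h 14 were higher and 6 were lower, against 15.2% of all genes tested each way, so that the shares of lower genes were near the background at both times. Median log2 differences were 0.05 at 24 h and 0.10 at 72 h. Of 3 RGK channel inhibitors tested, 1 was higher and 1 was lower at each time. Gem stood at 45.0, 62.7, 41.3 and 65.5 TPM with dexamethasone for 24 h, against 8.97, 13.8, 9.52 and 12.2 TPM with vehicle. It was 4.83-fold higher without overlap (limma adjusted p = 1.35e-07). At 72 h Gem was at 12.6 TPM with dexamethasone and 14.9 TPM with vehicle and did not pass (adjusted p = 0.526). Rrad, another member of the family, stood at 20.5, 47.6, 66.4 and 25.2 TPM with dexamethasone for 24 h, against 52.7, 139, 112 and 92.1 TPM with vehicle, and fell to 0.403 of the vehicle level (adjusted p = 0.00518). At 72 h Rrad stood at 17.0, 20.8, 9.43 and 14.7 TPM with dexamethasone, against 66.0, 149, 56.1 and 134 TPM with vehicle, and fell to 0.153 of the vehicle level without overlap (adjusted p = 2.43e-05). Rem1 was the one that rose at 72 h, with 15.7 ± 4.23 TPM with dexamethasone and 8.96 ± 2.72 TPM with vehicle (1.75-fold, adjusted p = 0.0296).

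Of 15 junctional partners of the reticulum tested, 4 were higher and 1 was lower with dexamethasone at each time. Their median log2 difference was -0.02 at 24 h and 0.07 at 72 h. Of 5 genes of store-operated entry, 2 were higher and 1 was lower at each time. All genes tested were higher in 13.2% at 24 h and 15.2% at 72 h, and lower in 12.2% and 15.2%. Tmem38b and Stim1 were abundant genes among the higher ones. Tmem38b, which encodes a cation channel of the reticulum, was at 162.5 ± 12.1 TPM with dexamethasone for 24 h and 75.0 ± 8.38 TPM with vehicle (adjusted p = 3.37e-07), and at 175 ± 22.1 TPM with dexamethasone for 72 h and 95.6 ± 10.2 TPM with vehicle (adjusted p = 1.82e-06). Stim1, the calcium sensor of store-operated entry, was at 39.5 ± 7.49 TPM with dexamethasone for 24 h and 18.8 ± 2.33 TPM with vehicle (adjusted p = 0.000323). Among the genes with the largest log2 differences, several were at low levels. Cacnb2, a beta subunit of heart and brain, was at 1.76 ± 0.533 TPM with dexamethasone for 72 h and 0.705 ± 0.262 TPM with vehicle (adjusted p = 0.00709). Cacna1g, a low-voltage-activated pore subunit, was at 0.0648 ± 0.0492 TPM with dexamethasone for 72 h and 0.943 ± 0.257 TPM with vehicle (adjusted p = 2.47e-06). The beta subunit Cacnb4, the alpha2-delta subunit Cacna2d2 and Cmya5, which encodes the muscle protein myospryn, also passed at both times and Stac, a paralogue of Stac3, at 24 h, each at means below 0.5 TPM in these groups. Cacnb4 and Cmya5 were higher with dexamethasone, and Cacna2d2 and Stac were lower.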

How the data were processed

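Messenger RNA of 24 C2C12 libraries was selected by poly(A) and prepared with a stranded kit, per the labels' protocols. GRCm39 is the build named in the submitters' processing notes. Those notes also list kallisto 0.51.1, Salmon and DESeq without saying what each did. The authors deposited a log2 table, normalised by a method not given in the sources used here, and a table of TPM. The deposited log2 values ran from -2.33 to 20.06, are not counts, and gave differences 0.635 to 0.706 as large as those of log2(TPM + 0.1). Neither table keeps depth, so depth per library is unknown.

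The 10 genes were matched by name in the TPM table and joined to the log2 table by Ensembl identifier; 1 of all identifiers was joined by name. Tests used limma 3.58.1 in R 4.3.3 (limma-trend) on the log2 values for 16257 genes with 2 to the power of the value at least 10 in at least 4 libraries, 1 mean per group, all 24 libraries, and Benjamini-Hochberg adjustment within each comparison. Shares of paralogues were tested with exact two-sided permutation in scipy 1.17.1 under Python 3.11.15. The procedure was tested on simulated data. Same-numbered libraries deviated together (Pearson r 0.145 to 0.212 for day 7 with day 0, 0.201 to 0.391 for dexamethasone with vehicle at 24 h and 0.117 to 0.338 at 72 h), so that by a rule of r above 0.1 in all 4 pairs the numbers were taken to pair these samples; the labels do not say what a number marks.

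Alternatives were log2(TPM + 0.1) and log2(TPM + 1) for 15250 genes at 0.5 TPM or more in at least 4 libraries, no filter, quantile normalisation, a replicate block, only the groups compared, both replicate 1 libraries at 72 h left out, and each library left out in turn. The block was fitted over all 24 libraries at once, also across groups whose numbers were not taken to pair. Leaving out a library outside a comparison keeps its difference and moves only the shared estimate of spread and the adjustment. Named genes were all 10 members, the 3 highest and 3 lowest passing genes of the other coupling lists in 3 comparisons, and the 2 most correlated genes per member, of which some are not reported here; Gem and Rem1 at 72 h, Tmem38b, Stim1 and Ryr2 were chosen after their values were seen, as was an exact permutation of the shares within pairs. Members, lists and rules were chosen with earlier results of these data known. Promoter sequences are from RefSeq on GRCm38.p6, a build older than the authors', where 5 of the 10 genes had an entry; that of Cacnb1 lies after another annotated start and is not printed.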

Additional observations from a re-analysis of the deposited data

Results flagged for a closer look

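Of 72 groups of 4 libraries checked for a library far from the other 3, 2 were marked, and chance marks about 1 in 20 such groups. Cacna2d1 in day 7 myotube replicate 2, at 39.5 TPM, was the lowest of its group, with a gap of 0.899 of the group's range to the next library. The share of Ryr3 in the summed Ryr1 and Ryr3 TPM in vehicle 72 h replicate 2, at 9.88%, was the highest of its group, with a gap of 0.91 of the range.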

How the results depend on the processing

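Under all 31 other settings 9 of the 10 genes rose at day 7 against day 0, all 10 rose with dexamethasone at 72 h against day 0, none fell in any comparison, and no called difference changed sign. With the replicate block, 4 genes rose with dexamethasone at 24 h and 4 at 72 h, and the block changed no other call among the paired comparisons; at 72 h against day 7, whose numbers do not pair, Cacng1 passed with vehicle under it (adjusted p = 0.0264). Permuting the shares within pairs could not decide any of the 6 differences, since 4 pairs allow no p below 0.125 (adjusted p = 0.15 to 0.5). With dexamethasone at 72 h, 1 gene rose on log2(TPM + 0.1), on log2(TPM + 1) and with only the compared groups fitted, and 4 without both replicate 1 libraries. Between vehicle 72 h and vehicle 24 h, 1 gene rose on log2(TPM + 0.1) and with quantile normalisation, and 0 without a filter, with only the compared groups, or without both replicate 1 libraries. Without both, 1 gene differed in response between times. Leaving out single libraries, the genes that rose numbered 2 to 3 with dexamethasone at 24 h, 0 to 4 at 72 h, 0 to 2 for vehicle 72 h over vehicle 24 h, 3 to 6 for vehicle 72 h over day 7, 7 to 9 for dexamethasone 72 h over day 7, and 0 to 1 in the difference of responses; the 0 at 72 h came without vehicle replicate 4, and the 1 without dexamethasone 72 h replicate 1. All genes called higher in these fits numbered 1480 to 2268 with dexamethasone at 24 h and 1940 to 2738 at 72 h. They numbered 1 to 927 for vehicle 72 h over vehicle 24 h and 590 to 1614 for vehicle 72 h over day 7. For dexamethasone 72 h over day 7 they numbered 3308 to 3950, and in the difference of responses 640 to 1177. The cause of these changes was not tested. On the TPM scale the median log2 difference of all genes was 0.13 between vehicle 72 h and vehicle 24 h and 0.11 between vehicle 72 h and day 7. It was 0.08 for dexamethasone at 24 h, 0.08 for dexamethasone 72 h over day 7, and -0.08 for day 7 over day 0. In the difference of responses it was -0.12. On the log2 table the medians lay between -0.02 and 0.01. Differences in the shares of Ryr3 and Jph2 kept their sign in all settings and were smaller from the log2 table, at -12.7 to 3.25 points. Unknown depth limits the genes near 1 TPM.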
